A study of Mus musculus with 6 samples.

Results

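Lin28a, Lin28b and 7 genes known as targets of the let-7 microRNAs (Hmga1, Hmga2, Igf2bp1, Igf2bp2, Igf2bp3, Trim71 and Arid3a) were followed in TKO mESCs grown in serum or in 2i. The 9 genes were picked by name and are 9 of the 53390 genes to which the deposited transcript values could be summed. Poly(A) RNA had been sequenced in 3 TKO-serum and 3 TKO-2i libraries, and the labels call the libraries of a group biological replicates. All cells were male J1 derivatives in which Dnmt1, Dnmt3a and Dnmt3b had been inactivated, so both groups carried the deletions, and no cells with intact methyltransferases were compared here. TKO-serum cells were grown in 15% fetal calf serum with 500 U/ml LIF. TKO-2i cells were grown in serum-free N2B27 with 1000 U/ml LIF, 1 µM PD0325901 against MEK and 3 µM CHIR99021 against GSK3. Medium, serum, inhibitors and LIF dose changed together, so their parts cannot be told apart.

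Lin28a and Lin28b are RNA-binding proteins of stem cells and early embryos that bind the let-7 precursor and block its maturation. Mature let-7 in turn pairs with sites in the 3′ UTRs of Lin28a, Lin28b and a set of genes of fetal and proliferating cells, and lowers their output.

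The targeted genes were read first, in TPM, the transcript abundance scaled for length and for library size. Dnmt1 stood at 29.1, 34.6 and 29.3 TPM in TKO-2i replicates 1, 2 and 3 and 25.7, 28.6 and 27.9 TPM in TKO-serum in the same order. Dnmt3a stood at 4.30, 5.19 and 4.54 TPM in TKO-2i and 21.3, 23.0 and 22.7 TPM in TKO-serum, and Dnmt3b was at 6.71, 9.53 and 8.49 TPM in TKO-2i and 18.8, 20.9 and 20.7 TPM in TKO-serum. Transcript of all 3 genes was thus measured in every library, and transcript outside a deleted part checks nothing about the deletion. TKO-2i replicate 2 lay further from the other libraries of its group, with a chi-square per gene of 48.1 and 29.3 against them and 7.51 between them. TKO-serum replicate 2 likewise had 16.4 and 11.2 against its group, where the others had 4.78 between them.

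All 9 genes passed the filter on low counts. At an adjusted p under 0.05 (edgeR quasi-likelihood test with Benjamini-Hochberg adjustment over 18177 tested genes), 6 of the 9 differed between TKO-2i and TKO-serum, where 62.5% of all tested genes did. Lin28a, Lin28b and Trim71 were lower in TKO-2i (3 of 9, against 30.6% of all tested genes), and Hmga2, Igf2bp3 and Arid3a were higher (3 of 9, against 31.9%). Hmga1, Igf2bp1 and Igf2bp2 did not pass. The TPM ranges of the conditions were apart for 6 of the 9 genes, against 62.5% of all tested genes. The median log2 fold change was 0.05 for the 9 genes and 0.01 for all tested genes. In bulk RNA, fewer expressing cells and less RNA per cell cannot be told apart.

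**Figure D1:**
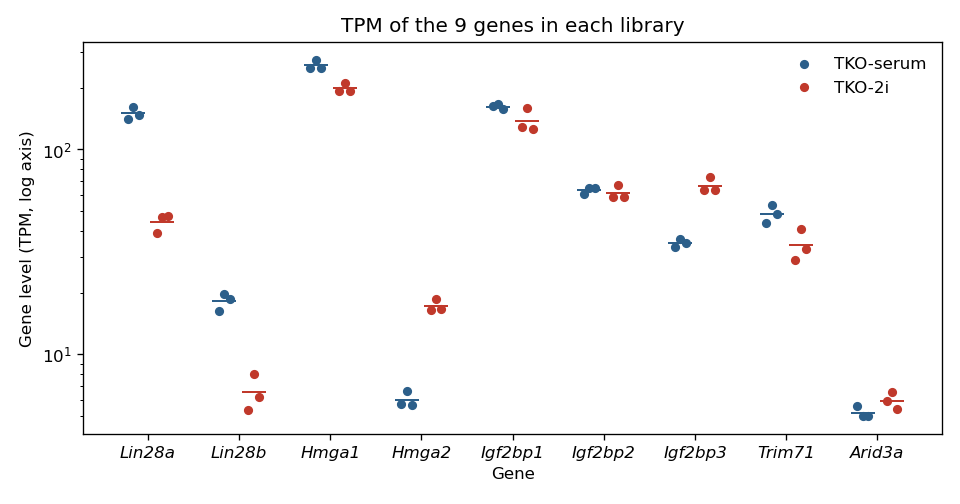
TPM of the 9 genes on a log axis, with a point for each library and a bar at the mean of the 3 libraries of a condition. Lin28a and Lin28b sit lower in all 3 TKO-2i libraries, and Hmga2 and Igf2bp3 sit higher.

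Lin28a (ENSMUSG00000050966; chr4:134003330-134018841, minus strand, GRCm38) had 38.9, 46.6 and 47.3 TPM in TKO-2i replicates 1, 2 and 3 and 141, 162 and 148 TPM in TKO-serum in the same order. All 3 TKO-2i libraries were below the lowest TKO-serum library. CPM, the counts scaled for library size but not for length, averaged 110 (SD 11.4, n = 3) and 348 CPM (SD 11.4, n = 3) in the order TKO-2i, TKO-serum. In edgeR this was 3.15-fold less RNA in TKO-2i, with a log2 fold change at -1.66 and a standard error of 0.08 (adjusted p = 5.88e-07). The protein-coding transcript Lin28a-201 held nearly all of the TPM, with 99.6%, 98.1% and 99.2% in TKO-2i and 98.2%, 98.5% and 97.7% in TKO-serum.

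Lin28b (ENSMUSG00000063804; chr10:45376620-45486395, minus strand), the paralogue that also blocks let-7 maturation, had 5.31, 8.03 and 6.18 TPM in TKO-2i and 16.3, 19.7 and 18.6 TPM in TKO-serum. TKO-2i replicate 2 was the highest of its group, yet it was below all TKO-serum libraries. CPM averaged 17.2 (SD 2.99, n = 3) and 45.8 CPM (SD 3.49, n = 3) in that order, 2.66-fold less in TKO-2i by edgeR (log2 fold change -1.41, standard error 0.12; adjusted p = 1.49e-05). Lin28a and Lin28b together summed to 44.2, 54.6 and 53.5 TPM in TKO-2i and 158, 181 and 166 TPM in TKO-serum. Of that sum Lin28a made up 88.0%, 85.3% and 88.4% in TKO-2i and 89.7%, 89.1% and 88.8% in TKO-serum, so it was the major form in every library. Whether the folds of the pair differ was not tested.

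Trim71 (ENSMUSG00000079259; chr9:114507133-114564369, minus strand), an RNA-binding E3 ligase of early embryos, had 29.0, 41.0 and 32.8 TPM in TKO-2i and 43.9, 53.4 and 48.3 TPM in TKO-serum. The ranges were apart, although TKO-2i replicate 2 came near the lowest TKO-serum library. CPM averaged 216 (SD 25.1, n = 3) and 286 CPM (SD 18.3, n = 3) in the order TKO-2i, TKO-serum. The fall was 1.33-fold (log2 fold change -0.41, standard error 0.09; adjusted p = 0.00393, edgeR).

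The Hmga genes encode small chromatin proteins that bind AT-rich DNA. Hmga2 (ENSMUSG00000056758; chr10:120361275-120476469, minus strand), a well-known let-7 target, had 16.4, 18.6 and 16.6 TPM in TKO-2i and 5.71, 6.64 and 5.65 TPM in TKO-serum. Every TKO-2i library was above every TKO-serum library, the reverse of Lin28a and Lin28b. CPM averaged 34.1 (SD 1.19, n = 3) and 11.1 CPM (SD 0.971, n = 3) in the order TKO-2i, TKO-serum, 3.06-fold more in TKO-2i (log2 fold change 1.61, standard error 0.08; adjusted p = 5.31e-07, edgeR). The transcript Hmga2-201 held a mean of 96.4% of the TPM in TKO-2i and 99.8% in TKO-serum (exact permutation test, p = 0.1, the smallest that 3 against 3 can give).

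Hmga1 (ENSMUSG00000046711; chr17:27556497-27563674, plus strand) was the most abundant of the 9 genes in TPM. It had 192, 211 and 194 TPM in TKO-2i and 251, 273 and 251 TPM in TKO-serum, ranges that were apart. On the count scale the gap was smaller, at 209, 184 and 205 CPM in TKO-2i and 222, 220 and 222 CPM in TKO-serum. The log2 fold change was -0.15 with a standard error of 0.06 and did not pass (adjusted p = 0.0555, edgeR), and it passed in 9 of 15 other settings. An intronless copy, Hmga1b (chr11:120762794-120764419), contains 88.1% of the 31-base words of Hmga1-201, so the split of reads between the pair is uncertain. Hmga1b was listed at 443, 402 and 436 TPM in TKO-2i and 619, 679 and 589 TPM in TKO-serum (log2 fold change -0.34, standard error 0.10; adjusted p = 0.0141, edgeR). The sum of both genes does not depend on that split and came to 716, 573 and 689 CPM in TKO-2i and 835, 765 and 814 CPM in TKO-serum, with every TKO-2i library below every TKO-serum library.

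Of the TPM of Hmga1 and Hmga2, the Hmga2 share was 7.86%, 8.10% and 7.87% in TKO-2i and 2.22%, 2.37% and 2.20% in TKO-serum. With Hmga1b in the sum, a value added after the others were seen, it was 2.52%, 2.94% and 2.56% in TKO-2i and 0.652%, 0.692% and 0.669% in TKO-serum. The TKO-2i libraries had the larger Hmga2 share either way.

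The Igf2bp proteins bind mRNAs, Igf2 mRNA among them, and affect their stability and translation. Igf2bp3 (ENSMUSG00000029814; chr6:49085223-49214957, minus strand) had 63.7, 73.1 and 63.2 TPM in TKO-2i and 33.4, 36.6 and 34.8 TPM in TKO-serum, with all TKO-2i libraries on top. CPM averaged 188 (SD 1.43, n = 3) and 90.4 CPM (SD 1.76, n = 3) in the order TKO-2i, TKO-serum, 2.08-fold more in TKO-2i (log2 fold change 1.06, standard error 0.05; adjusted p = 5.02e-07, edgeR). On chromosome 6, the 866 tested genes had a median of 0.41, and the part of this shift in the Igf2bp3 result was not tested. The 3′ end of Igf2bp3 overlaps Malsu1 on the opposite strand, and 34.7% of the 31-base words of Igf2bp3-201 occur there. Malsu1, named after its values were seen, had 47.9, 42.3 and 48.1 TPM in TKO-2i and 28.3, 21.6 and 24.8 TPM in TKO-serum. The libraries were strand-specific. Whether the strand was used in counting is not given in the sources used here, so reads of the pair may not be separated.

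Igf2bp1 (ENSMUSG00000013415; chr11:95957163-96005940, minus strand), the most abundant Igf2bp gene in TPM, had 129, 159 and 126 TPM in TKO-2i and 162, 166 and 157 TPM in TKO-serum. TKO-2i replicate 2 lay inside the TKO-serum range and the other TKO-2i libraries lay below it. On the count scale the order was turned around, at 656, 713 and 666 CPM in TKO-2i and 633, 640 and 627 CPM in TKO-serum. Its log2 fold change of 0.10 did not pass (standard error 0.05; adjusted p = 0.11, edgeR) and was -0.14 with length-scaled TPM counts, so no direction is given. Chromosome 11, where Igf2bp1 lies, had a median of 0.26 over 1399 genes.

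The coding transcript Igf2bp1-201 had 93.7, 114 and 94.2 TPM in TKO-2i and 93.8, 103 and 97.7 TPM in TKO-serum, with overlapping ranges. The processed transcript Igf2bp1-205 had 18.5, 23.1 and 13.3 TPM in TKO-2i and 35.4, 36.0 and 31.9 TPM in TKO-serum. Igf2bp1-204, also a processed transcript, was at 12.4, 14.2 and 12.0 TPM in TKO-2i and 22.0, 19.6 and 21.1 TPM in TKO-serum. Both of these were lower in every TKO-2i library, while the ranges of the coding transcript and of the remaining processed transcripts overlapped. As a share of TPM, Igf2bp1-201 held 72.6%, 72.0% and 74.9% in TKO-2i and 57.8%, 62.0% and 62.3% in TKO-serum, a difference of 12.5 percentage points (exact permutation test, p = 0.1). As a share of estimated counts, where short transcripts weigh less, the difference was 1.67 points.

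**Figure D2:**
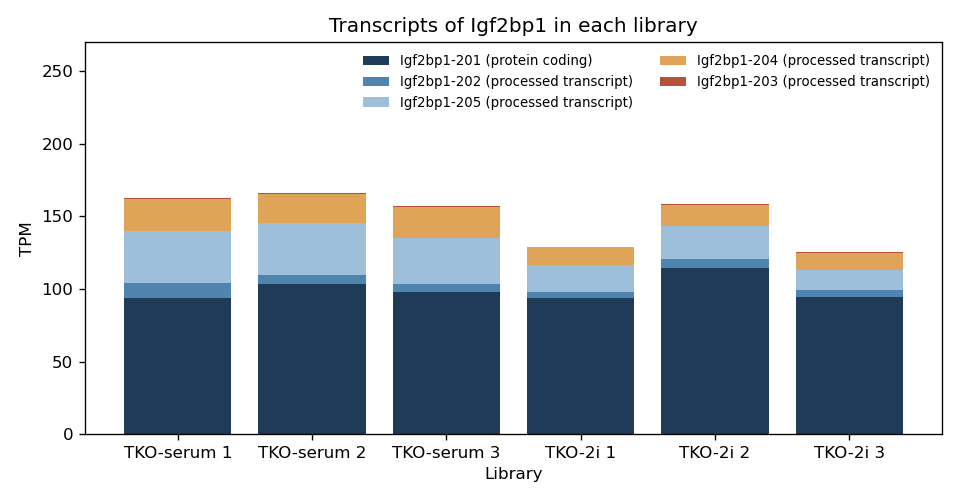
TPM of the annotated Igf2bp1 transcripts, stacked for each library, with the transcript type in the key. The processed transcripts Igf2bp1-204 and Igf2bp1-205 are smaller in the 3 TKO-2i libraries.

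Igf2bp2 (ENSMUSG00000033581; chr16:22059009-22163299, minus strand) had 58.8, 67.0 and 58.6 TPM in TKO-2i and 60.8, 64.5 and 64.7 TPM in TKO-serum, with overlapping ranges. On the count scale the order of the means was turned around and the ranges were narrowly apart, at 167, 164 and 167 CPM in TKO-2i and 164, 158 and 162 CPM in TKO-serum. The gene did not pass (log2 fold change 0.05, standard error 0.05; adjusted p = 0.436, edgeR). Its coding transcript Igf2bp2-202, named after its values were seen, was listed at 0, 0 and 0 TPM in TKO-2i and 9.98, 4.44 and 5.46 TPM in TKO-serum. Such a 0 is an estimate that depends on how reads are shared among overlapping transcripts. The 3 Igf2bp genes summed to 251, 299 and 248 TPM in TKO-2i and 257, 267 and 256 TPM in TKO-serum, with overlapping ranges. Within that sum Igf2bp3 held 25.3%, 24.5% and 25.5% in TKO-2i and 13.0%, 13.7% and 13.6% in TKO-serum, and Igf2bp1 held 51.3%, 53.1% and 50.8% in TKO-2i and 63.3%, 62.2% and 61.2% in TKO-serum. The Igf2bp3 share was larger and the Igf2bp1 share smaller in every TKO-2i library.

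Arid3a (ENSMUSG00000019564; chr10:79927043-79955018, plus strand), a DNA-binding protein, had the lowest mean TPM of the 9 genes under both conditions, although its TKO-2i range overlapped that of Lin28b. It had 5.89, 6.52 and 5.38 TPM in TKO-2i and 5.60, 4.98 and 4.98 TPM in TKO-serum, and TKO-serum replicate 1 was above TKO-2i replicate 3. On the count scale the ranges were apart, with means of 25.1 (SD 1.28, n = 3) and 19.4 CPM (SD 0.850, n = 3) in the order TKO-2i, TKO-serum. The rise was 1.30-fold (log2 fold change 0.37, standard error 0.06; adjusted p = 0.00101, edgeR). It was not called with limma on log2(TPM + 1), where it was 0.16 (adjusted p = 0.212).

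**Figure D3:**
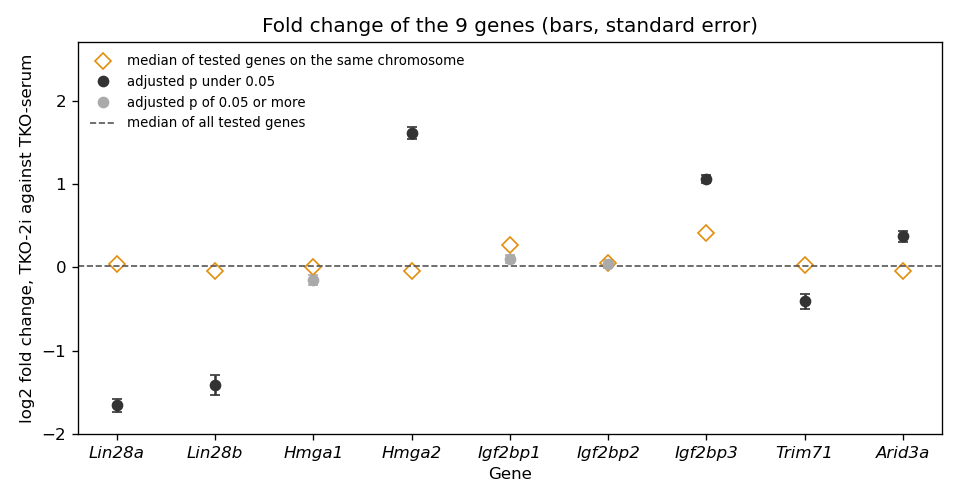
Log2 fold change between TKO-2i and TKO-serum of each gene with its standard error, beside the median of the tested genes on the same chromosome (open diamonds) and of all tested genes (dashed line). Of these chromosomes, 6 (Igf2bp3) and 11 (Igf2bp1) have the medians furthest above the dashed line.

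In order of mean TPM, the TKO-serum levels ran Hmga1, Igf2bp1, Lin28a, Igf2bp2, Trim71, Igf2bp3, Lin28b, Hmga2 and Arid3a. Among neighbours there, only the ranges of Igf2bp1 and Lin28a overlapped. In TKO-2i the order was Hmga1, Igf2bp1, Igf2bp3, Igf2bp2, Lin28a, Trim71, Hmga2, Lin28b and Arid3a. Here the ranges overlapped for Igf2bp3 and Igf2bp2, for Lin28a and Trim71, and for Lin28b and Arid3a. By mean TPM, Lin28a was at percentile 94.9 of all tested genes in TKO-serum and at 81.6 in TKO-2i, and Hmga2 was at 46.6 and 64.6.

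Genes with a profile over the 6 libraries like that of Lin28a were searched by the root mean square difference of log2(CPM + 0.5), centred on the mean of each gene. The added 0.5 shrinks the folds of genes with low CPM, so a small difference in profile need not mean an equal fold. The nearest of 12872 genes to Lin28a were Sgk2 (0.0363), Fam198b (0.0469) and Dlg4 (0.0483), where the median of all genes searched was 0.877. In edgeR their log2 fold changes were -1.902, -1.768 and -1.874 in that order, against -1.657 for Lin28a. Those nearest to Lin28b were Thap2 (0.0538), Akap11 (0.0585) and Psmb11 (0.0644), against a median of 0.763. Here the log2 fold changes were -1.685, -1.383 and -1.639, against -1.413 for Lin28b. Those nearest to Trim71 were Gm2004 (0.0215), Spred1 (0.0237) and Zmat3 (0.0286), against a median of 0.333. For these the log2 fold changes were -0.402, -0.435 and -0.434, against -0.407 for Trim71.

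Mature miRNAs were not measured by these libraries, and the mature let-7 sequences are shown because the seed, bases 2 to 8, sets the sites they pair with. In the RefSeq annotation of GRCm38.p6, 10 names of the family share the seed GAGGUAG, and let-7j has GAGGUAU. The seed is in capitals:
let-7a-5p: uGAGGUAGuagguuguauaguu
let-7b-5p: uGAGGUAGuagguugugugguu
let-7d-5p: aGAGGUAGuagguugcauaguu
let-7g-5p: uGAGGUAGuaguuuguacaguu
let-7j: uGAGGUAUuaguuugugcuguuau

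The 8-base site CTACCTCA, which is the match to the shared seed (CTACCTC) followed by an A opposite base 1, was searched in the 3′ UTR of the most abundant coding transcript of each gene (GENCODE M21). Of 14923 tested genes with such a UTR, 457 (3.06%) held at least 1 match and 24 (0.16%) held 2 or more. Among the 9 genes, Trim71 had 4 matches, Igf2bp1 had 3, Lin28a had 2, and Lin28b, Hmga2, Igf2bp2, Igf2bp3 and Arid3a had 1 each. Hmga1 had 0 matches of 8 bases. To the 7-base form CTACCTC, Trim71, Igf2bp1, Lin28b and Hmga2 had 4 matches each. Lin28a and Arid3a had 2 of that form, and Hmga1, Igf2bp2 and Igf2bp3 had 1. The genes were chosen as known targets, so these matches are part of the choice, and a match describes sequence only. Their 3′ UTRs ran from 1177 bases in Hmga1 to 6337 in Igf2bp1, against a median of 885 over all these genes. The 8-base matches of Lin28a, Lin28b and Hmga2 and the first of Trim71 are shown, and the others are left out. Each is printed with 8 bases on each side, on the transcribed strand (GRCm38), with the 8-base site, its last A included, in capitals:
Lin28a, chr4:134005189-134005196: ctgttgaaCTACCTCAtttttgcc
Lin28a, chr4:134004551-134004558: ccacaaacCTACCTCActgtgttg
Lin28b, chr10:45381022-45381029: cgggaagtCTACCTCAtgcaagca
Hmga2, chr10:120364224-120364231: ttcaatttCTACCTCAgcatcagt
Trim71, chr9:114512472-114512479: cctaagtcCTACCTCAgcttaaat

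Genes with 0 matches had a median log2 fold change of 0.03 (14466 genes, 35.9% higher and 31.4% lower in TKO-2i). Those with 1 match had 0.05 (433 genes, 35.1% higher and 32.1% lower). The 24 genes with 2 or more had -0.14, with 7 higher and 11 lower, and Lin28a, Trim71 and Igf2bp1 are among them. The median 3′ UTR was 856 bases for 0 matches, 2177 for 1 and 4611 for 2 or more. The part of UTR length in these medians was not tested. With the 7-base form, 153 genes had 2 or more matches and a median of 0.005. Trim6, which has the most 8-base matches (5), was higher in TKO-2i (log2 fold change 0.43, standard error 0.05).

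Of 22 genes that process let-7, act on its precursor or carry out silencing, 11 were higher in TKO-2i (against 31.9% of all tested genes). Only 1 was lower (against 30.6%), and the median log2 fold change was 0.21, against 0.01 over all tested genes. The list is mixed and includes Tut4, which acts with Lin28a, so the count of rises is no measure of let-7 processing. Not called were 10 genes, among them Dgcr8 (-0.10), Xpo5 (-0.04), Dicer1 (-0.22), Tarbp2 (-0.12) and Prkra (0.001). Ago2, which carries the guide strand in the silencing complex, had 28.8, 45.8 and 31.1 TPM in TKO-2i and 19.5, 22.6 and 20.9 TPM in TKO-serum, with replicate 2 highest in each group and the groups apart. Its log2 fold change was the largest rise (0.82, standard error 0.12), followed by Tut4, which uridylates the let-7 precursor with Lin28a (0.49, standard error 0.11), Ago1 (0.44, standard error 0.08) and Drosha, the nuclear processing enzyme (0.39, standard error 0.05). Tnrc6b, a silencing scaffold, was the only fall (-0.54, standard error 0.10).

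Of 17 names of let-7 hosts and precursors, 14 were matched, and 10 were at 0 in all 6 libraries. Only Huwe1, the host of let-7f-2 and miR-98, passed the filter on low counts, and it was not called (log2 fold change -0.27, standard error 0.11; adjusted p = 0.0616, edgeR). Short precursors are retained poorly by poly(A) selection, so a 0 says nothing on mature let-7.

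Of 32 other genes known as let-7 targets, 12 were higher (against 31.9% of all tested genes) and 9 lower in TKO-2i (against 30.6%), shares near those of all genes. The median was 0.06, against 0.01 over all tested genes. Prdm1, a transcription factor of germ cells, had 1.53, 1.68 and 1.62 TPM in TKO-2i and 9.50, 11.1 and 9.81 TPM in TKO-serum. All TKO-2i libraries were below all TKO-serum libraries. Among the largest rises were those of Bach1 (1.13, standard error 0.08), E2f6 (0.83, standard error 0.05) and Dna2 (0.72, standard error 0.05). The largest falls were those of Thbs1 (-5.26, standard error 0.25), Prdm1 (-2.50, standard error 0.07), Ccnd2 (-1.79, standard error 0.08) and Irs2 (-1.72, standard error 0.10).

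Of 11 tested genes of the insulin-like growth factor axis, 7 were lower (against 30.6% of all tested genes) and 2 higher in TKO-2i (against 31.9%). The median was -0.67, against 0.01 overall. The imprinted noncoding H19 had 0.714, 1.03 and 0.898 TPM in TKO-2i and 92.4, 108 and 96.5 TPM in TKO-serum. The growth factor gene Igf2, whose mRNA the Igf2bp proteins bind, had 0.358, 0.547 and 0.638 TPM in TKO-2i and 3.77, 3.65 and 3.61 TPM in TKO-serum. Groups were apart for H19 and Igf2. These were the largest falls, H19 with -6.65, standard error 0.09 and Igf2 with -2.81, standard error 0.13, before Igfbp3 (-2.05, standard error 0.07) and Irs1 (-1.75, standard error 0.18). Igfbp5 (0.87, standard error 0.14) and Igf1r (0.21, standard error 0.08) were the rises. Igf1r was near the threshold (adjusted p = 0.0482, edgeR), and its TPM ranges overlapped. Levels were low for Irs1, with means of 0.07 TPM in TKO-2i and 0.24 TPM in TKO-serum. Those of Igfbp5 were 0.58 and 0.34 TPM in the same order.

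A list of 15 tested genes held relatives of the 9 genes and also the Hmgn genes, a separate family of nucleosome-binding proteins. Of these, 8 were lower (against 30.6% of all tested genes), 4 of them Hmgn genes, and 1 was higher in TKO-2i (against 31.9%). The median was -0.20, against 0.01 overall. Hmgn3 (-1.45, standard error 0.17), Trim2 (-1.36, standard error 0.08), Arid3c (-1.30, standard error 0.21) and Ybx2 (-1.12, standard error 0.08) fell most, and Trim3 rose (0.27, standard error 0.07).

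Marker genes of cell states were read as whole lists. Naive pluripotency markers summed to 1134, 1263 and 1136 TPM in TKO-2i and 965, 985 and 987 TPM in TKO-serum, and 6 of 9 were higher and 1 lower. Their most abundant gene, Klf2, was not called (log2 fold change -0.02, standard error 0.08). Formative and primed markers summed to 142, 154 and 148 TPM in TKO-2i and 197, 227 and 205 TPM in TKO-serum, Etv4 being the most abundant in TKO-2i, and 8 of 11 were lower and 3 higher. General pluripotency markers, led by Pou5f1, summed to 2915, 2885 and 2738 TPM in TKO-2i and 3559, 3672 and 3597 TPM in TKO-serum, with 6 of 9 lower and 1 higher. Over all tested genes, 31.9% were higher and 30.6% lower. In each of these lists the summed levels of the groups were apart.

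Among markers of other cell types, the primitive endoderm list summed to 5.04, 6.19 and 5.39 TPM in TKO-2i and 19.8, 23.0 and 25.4 TPM in TKO-serum, and 8 of 9 genes were lower, with Gata4 the most abundant in TKO-2i and Dab2 in TKO-serum. Trophoblast markers summed to 92.4, 88.0 and 88.2 TPM in TKO-2i and 53.2, 55.0 and 51.7 TPM in TKO-serum, with Krt8 the most abundant in TKO-2i and Tfap2c in TKO-serum, and 4 of 9 higher and 4 lower. The fibroblast list, led by Thy1, summed to 6.10, 6.79 and 5.98 TPM in TKO-2i and 6.52, 7.06 and 6.68 TPM in TKO-serum, and of 4 tested genes 1 was higher and 2 were lower. Twist2 was at 0 in all TKO-2i libraries and in TKO-serum replicate 2, with at most 3 counts in any library. Beside these counts, 31.9% of all tested genes were higher and 30.6% lower. The summed primitive endoderm level was lower in all TKO-2i libraries, and fibroblast sums overlapped. The trophoblast sum was higher in all TKO-2i libraries mostly through Krt8, which had 44.2, 41.3 and 44.3 TPM in TKO-2i and 13.8, 13.5 and 13.6 TPM in TKO-serum, and the list as a whole went in both directions. The part of these marker shifts in the levels of Lin28a, Lin28b and the let-7 targets was not tested.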

How the data were processed

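Per the labels, poly(A) RNA of 6 TKO libraries was sequenced. The authors deposited estimated counts, TPM and effective lengths per transcript, and the quantifier is not given in the sources used here. Estimated counts and TPM of 136100 of 136288 transcripts were summed per gene (GENCODE M21, GRCm38). The counts of the libraries ran from 38274042 to 51932739. Rounded counts were filtered with filterByExpr, normalised by TMM and tested with edgeR 4.0.16 (quasi-likelihood test, Benjamini-Hochberg, R 4.3.3). The standard error is the absolute log2 fold change over the square root of F. A level of 3 counts lies at 0.0578 to 0.0784 CPM, a floor that covers counting error only. Sequencing pools were not compared.

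Alternatives were DESeq2 1.42.0, its size factors, other filters, length-scaled TPM counts, limma 3.58.1 on log TPM, a replicate block and each library left out. The text names the 9 genes, up to 4 called rises and 4 called falls per list, the copy Hmga1b, and the 3 genes nearest in profile to Lin28a, Lin28b and Trim71. Trim6, Malsu1, Twist2, Igf2bp2-202, Igf2bp1-204 and Igf2bp1-205, the leading marker genes, and the per-library levels of Ago2, Krt8, Prdm1, H19 and Igf2 were picked after values were seen. Dgcr8, Xpo5, Dicer1, Tarbp2 and Prkra were likewise picked after values were seen. The 9 genes and the lists were chosen with earlier results of these data known.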

Additional observations from a re-analysis of the deposited data

How the results depend on the processing

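Lin28a (-1.763 to -1.614), Lin28b (-1.546 to -1.314), Hmga2 (1.378 to 1.687), Igf2bp3 (0.911 to 1.07) and Trim71 (-0.51 to -0.339) kept the direction and the call of their log2 fold changes in all 15 alternatives. Of all genes, 9804 to 12568 passed. Hmga1 passed with DESeq2 (-0.17), DESeq2 size factors in edgeR (-0.17), at least 10 counts in every library (-0.193), length-scaled TPM counts (-0.282), limma on log2(TPM + 1) (-0.375) or log2(TPM + 0.1) (-0.377), protein-coding genes (-0.177), the replicate block (-0.154) and without TKO-2i replicate 1, over a leave-one-out range of -0.203 to -0.091. Arid3a was not called with limma (0.162 and 0.187). Igf2bp1 turned to -0.144 with length-scaled TPM counts and to -0.238 and -0.239 with limma, and Igf2bp2 turned to -0.044 with limma at either pseudocount. The cause was not tested. With libraries left out, the Igf2bp2-201 share differed by -1.4394 to 1.8566 points. Genes with let-7 matches had medians of 0.025 (1 match) and 0.005 (2 or more) with the 7-base form. Keeping only genes with a mean of 1 CPM or more gave 0.081 for 0 matches and 0.081 for 1. Replicate numbers were tried as a block, and 12539 genes passed. Deviations of equally numbered libraries correlated with r of 0.38, 0.498 and 0.064, and TKO-2i replicate 3 went best with TKO-serum replicate 1 (0.197), so not every library correlated best with its own number and the numbers were not used as pairs. Depth limits genes of few counts such as Thbs1, with 4 in its lowest library.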
